A study of Mus musculus with 6 samples.

Results

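The BCL2 family sets the threshold at which a cell enters mitochondrial cell death. Inhibitors such as BCL2 hold the pore-forming effectors BAX and BAK1 in check, and BH3-only proteins, which carry a single BCL2 homology motif, bind the inhibitors or the effectors and tip the balance towards pores in the outer mitochondrial membrane, release of cytochrome c and activation of caspases. In the testis, members of the family act on germ cells and Sertoli cells alike, and Bcl2l2 is known for its part in the survival of both. Here, 10 genes of the family were followed: the inhibitors Bcl2, Bcl2l1, Bcl2l2 and Mcl1, the effectors Bax, Bak1 and Bok, and the BH3-only genes Bmf, Bcl2l11 and Bbc3. They were found by symbol among the 28262 genes of the deposited count table, and all 10 were among the 14919 genes that passed the filter on low counts.

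Primary Sertoli cells, the somatic cells that nurse germ cells inside the seminiferous tubules, were isolated from untreated 20-day-old C57BL/6 mice and cultured before total RNA was taken for RNA-seq. Pa1F/F cells (3 libraries) carried floxed, undeleted Pa1 alleles and served as the control. Pa1-/- cells (3 libraries) came from Pa1F/F mice that also carried a Cre recombinase under the Amh promoter, which is active in Sertoli cells, so that both alleles were deleted in these cells while the germ cells of the animal kept them. PA1 is a subunit of the histone methyltransferase complexes around MLL3 and MLL4, and the comparison asks which transcripts change when Sertoli cells lose it. The methods of the study speak of biological replicates without tying each library to an animal or culture, and the p-values measure the spread between these libraries. Pa1 itself was not analysed here, and the genotypes rest on the labels.

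Libraries held 14051353 to 16231443 counts in Pa1F/F and 13203757 to 15247587 counts in Pa1-/- cells. Counts were scaled to the mean effective library size of the 6 libraries with edgeR and are given as normalized counts. On that scale 3 counts, the limit that a count of 0 allows, stand at 2.72 to 3.38. Within each genotype a pair of libraries lay close together (coefficient of variation beyond counting error of 5.17% between Pa1F/F replicates 1 and 3, and 4.46% between Pa1-/- replicates 1 and 2), while Pa1F/F replicate 2 lay 16.4% and 16.6% from the others and Pa1-/- replicate 3 lay 20.8% from both of the others. The study does not tie the libraries of a close pair to separate animals or cultures. If they share one, each genotype has fewer than 3 independent libraries. Of 10 Sertoli cell markers 9 were tested, with Inha (log2 fold change -1.23) and Gata4 (-0.88) lower, Dmrt1 (0.64) higher, Sox9, Wt1, Fshr, Tjp1, Amh and Cldn11 not called, and the untested Rhox5 at no more than 16 counts in any library. Cldn11, the most counted, had 15935 to 16465 normalized counts in Pa1F/F and 11084 to 15146 in Pa1-/- cells (-0.36, adjusted p 0.0632) and was lower by DESeq2's Wald test (0.0342), with limma-voom (0.0477), with no filter (0.0472) and without Pa1-/- replicate 3 (0.00023). Amh had 43.9 and 48.4 normalized counts in Pa1-/- replicates 1 and 2 and 365 in replicate 3, against 179 to 254 in Pa1F/F, and was lower without Pa1-/- replicate 3 (-2.16, adjusted p 0.000291). Wt1 was higher without that library (0.26, adjusted p 0.0018). The summed level of this list was 3026 to 3134 CPM (counts scaled by library size) in Pa1F/F and 2356 to 2412 CPM in Pa1-/- cells.

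Of the markers of other testis cells, some differed between the genotypes and others did not. The 6 Leydig cell markers summed to 793 to 910 CPM in Pa1F/F and 165 to 287 CPM in Pa1-/- cells, with Star, Cyp11a1 and Hsd3b1 lower and the defining markers Cyp17a1 and Insl3 at 0 to 3 counts in every library. The 8 macrophage markers summed to 123 to 134 CPM against 74.6 to 92.6 CPM, with 5 lower (Csf1r, Adgre1, Cd68, Ptprc and Lyz2, log2 fold changes from -3.38 to -1.65) and the most abundant, Mrc1, not called (0.17), although it was higher without Pa1-/- replicate 3 (0.28, adjusted p 0.00813). Csf1r, Adgre1 and Ptprc passed the filter on low counts through the Pa1F/F libraries (14 to 87 counts, against 2 to 13 in Pa1-/- libraries). Their calls are thus no support for a fall in this list. These genes were not tested where each library had to hold 10 counts or more. The 5 peritubular myoid cell markers did not move as one. Their sum was 213 to 272 CPM in Pa1F/F and 823 to 1216 CPM in Pa1-/- cells, and Acta2, higher by 2.15 on the log2 scale, was the one marker called. Myh11 had 481 to 649 normalized counts in Pa1F/F, 216 and 164 in Pa1-/- replicates 1 and 2 and 1605 in replicate 3, and without Pa1-/- replicate 3 it was lower (-1.58, adjusted p 0.000484). Des had 93.0 to 139 in Pa1F/F, 43.9 and 46.2 in Pa1-/- replicates 1 and 2 and 485 in replicate 3, and Cnn1 was highest in Pa1-/- replicate 3 too (421, against 24.8 to 65.0 in the other libraries). Endothelial markers summed to 116 to 122 CPM against 63.8 to 101 CPM (Pecam1 and Cdh5 lower, Vwf higher, Kdr not called). Kdr had 485 normalized counts in Pa1-/- replicate 3 and 62.5 to 99.7 in the other libraries. Its log2 fold change of 1.47 ranged from 0.00433 to 1.89 with 1 library left out. Vwf, at an adjusted p of 0.0339, was not called in 6 of 13 alternatives, with adjusted p up to 0.113, among them those without Pa1F/F replicate 1 (0.0893) or 3 (0.0659) and without Pa1-/- replicate 1 (0.108) or 2 (0.0691). With 2 to 10 counts in Pa1F/F and 16 to 26 in Pa1-/- libraries, Vwf passed the filter through the Pa1-/- libraries. Its call is thus no support for a rise. Of 12 germ cell markers 11 were in the table and 3 were tested. Ddx4 was lower (adjusted p 0.0373, but up to 0.128 and not called in 7 of 13 alternatives, DESeq2's Wald test among them at 0.0629, and every fit that left out a Pa1F/F library or Pa1-/- replicate 1), and Dmc1 and Sycp3 were not called. With 13 to 24 counts in Pa1F/F and 2 to 7 in Pa1-/- libraries, Ddx4 passed the filter through the Pa1F/F libraries alone. Its call is thus no support for a fall. The list summed to 4.31 to 5.41 CPM against 3.58 to 9.93 CPM, with Prm1, Stra8 and Spo11 at 0 to 2 counts. The untested Dazl, Tex101 and Sycp1 had 45, 15 and 12 counts in Pa1-/- replicate 3, and at most 16, 8 and 6 in other libraries. The part of these cell types in the differences described for the BCL2 family was not tested.

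Of the 10 BCL2 family genes, 5 were lower in Pa1-/- cells at an adjusted p under 0.05 (edgeR's quasi-likelihood test, Benjamini-Hochberg over 14919 genes), against 17.1% of all genes tested, and 0 were higher, against 18.2% of all genes. The 5 were the BH3-only genes Bmf, Bcl2l11 and Bbc3, the inhibitor Bcl2 and the effector Bok. With the 2 closest libraries of each genotype summed, Bmf alone was called lower, in a fit that called 8.66% of all genes tested. Before adjustment, 5 were lower and 2 higher (Bak1 and Bcl2l2) at p under 0.05, and DESeq2's Wald test and limma-voom each called the same count of 5 lower and 1 higher, Bak1. Bmf alone also passed an absolute log2 fold change of 1, a pair of thresholds that 6.56% of all genes tested passed downwards and 5.44% upwards. The ranges of the 2 genotypes did not overlap for 7 of the 10 genes, against 52.4% of all genes. The median log2 fold change of the 10 genes was -0.29, and that of all genes tested was 0.00197. In these bulk libraries fewer cells of a type and less RNA per cell cannot be told apart.

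**Figure D1:**
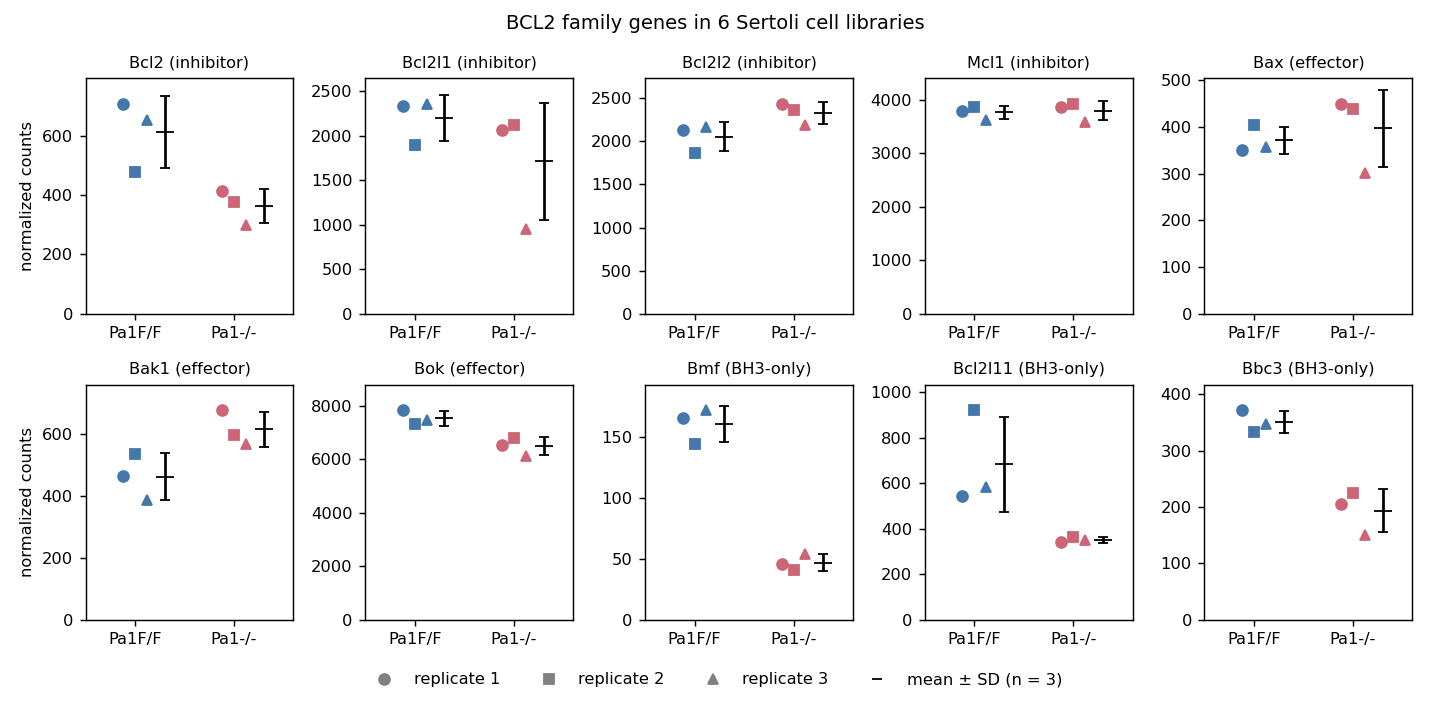
Normalized counts of the 10 BCL2 family genes, 1 panel per gene with its own axis from 0, in 3 Pa1F/F (blue) and 3 Pa1-/- (red) libraries, with symbols for replicate numbers and black bars for the mean ± SD (n = 3). All 3 Pa1-/- libraries lie below all 3 Pa1F/F libraries for Bmf, Bcl2l11, Bbc3, Bcl2 and Bok, and above them for Bak1 and Bcl2l2, while Pa1-/- replicate 3 stands well below the other libraries for Bcl2l1.

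The DNA just upstream of the transcription start is shown for Bmf, Bcl2l11 and Bcl2, 3 of the 5 genes called lower, as RefSeq gives it on GRCm38.p6. The window of Bok, also called lower, was searched with those of the other genes and is not shown. Each stretch holds the 250 bases before the RefSeq start nearest to the start of the gene in the count table, 5′ to 3′ on the strand of the gene, and capitals mark matches on either strand to any of 6 short motifs, which are spelled out after the sequences. They come from chr2:118549687-118549936 (minus strand) for Bmf, chr2:128125788-128126037 (plus strand) for Bcl2l11 and chr1:106714291-106714540 (minus strand) for Bcl2. For Bbc3 the nearest RefSeq start lies 1190 bases inside the gene as listed, so that its sequence is not shown.
Bmf: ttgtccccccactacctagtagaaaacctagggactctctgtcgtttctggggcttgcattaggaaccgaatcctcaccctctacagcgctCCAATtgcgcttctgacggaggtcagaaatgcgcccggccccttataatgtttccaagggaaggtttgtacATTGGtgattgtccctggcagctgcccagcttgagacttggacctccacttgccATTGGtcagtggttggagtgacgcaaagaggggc
Bcl2l11: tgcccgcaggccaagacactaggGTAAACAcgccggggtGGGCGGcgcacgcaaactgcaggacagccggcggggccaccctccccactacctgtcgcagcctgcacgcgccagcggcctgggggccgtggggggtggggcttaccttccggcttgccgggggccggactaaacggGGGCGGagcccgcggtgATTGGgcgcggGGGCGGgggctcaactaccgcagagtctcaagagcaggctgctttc
Bcl2: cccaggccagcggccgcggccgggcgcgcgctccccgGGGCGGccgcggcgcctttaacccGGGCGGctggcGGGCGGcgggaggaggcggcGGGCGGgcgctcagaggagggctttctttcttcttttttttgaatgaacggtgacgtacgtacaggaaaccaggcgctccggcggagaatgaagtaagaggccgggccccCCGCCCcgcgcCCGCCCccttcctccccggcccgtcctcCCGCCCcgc

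The 3 stretches differed in make-up. That of Bmf held 54.0% G and C and 3 CCAAT boxes, that of Bcl2l11 held 72.0% with 3 GC boxes, 1 CCAAT box and 1 FOXO match, and that of Bcl2 held 74.8% with 7 GC boxes. All 10 genes matched a RefSeq start, and their windows had a median GC content of 61.4% (47.6 to 76.4%), against 52.4% over 32817 windows of the same length. The RefSeq starts used for the windows of Bak1 and Bbc3 lie 382 and 1190 bases from the listed start of the gene. Without the window of Bbc3, which has the highest GC content and a GC box, the median was 58.4% (47.6 to 74.8%). The GC box, searched as GGGCGG, was in 7 of the 10 windows, 6 of 9 without Bbc3, and in 32.7% of all windows. The 7 include Bcl2l2, Mcl1 and Bax, which were not called, and leave out Bmf. The CCAAT box, searched by those letters, was in 2 windows (Bmf and Bcl2l11) and in 33.8% of all. The AP-1 motif, searched as TGANTCA, and the CRE, searched as TGACGTCA, to which JUN and its partners are known to bind, were in 0 of the 10 windows, and in 6.75% and 1.55% of all windows. The FOXO motif, searched as TGTTTAC, was in 1 window (Bcl2l11) and in 3.16% of all. The E-box, searched as CACGTG, was in 1 window (Bax) and in 6.02% of all. A match is one of letters only, and nothing about binding was measured here.

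The BH3-only genes were lower in every Pa1-/- library than in any Pa1F/F library, by 3.41-fold for Bmf, 1.95-fold for Bcl2l11 and 1.81-fold for Bbc3. Bmf encodes a BH3-only protein that is kept at the actin-associated myosin motor until released, and lies at chr2:118528757-118549687 on the minus strand. It had 165, 144 and 172 normalized counts in Pa1F/F replicates 1, 2 and 3 and 45.9, 40.6 and 54.1 in Pa1-/- replicates 1, 2 and 3. The 2 groups were well apart, with the highest Pa1-/- library under the lowest control. The mean went from 160.4 ± 14.4 (SD, n = 3) to 46.8 ± 6.83 (SD, n = 3), a log2 fold change of -1.77 (SE 0.16; 95% interval -2.16 to -1.38) at an adjusted p of 0.00057. Of all genes tested, 3.06% had a lower log2 fold change. Although it was the least counted of the 10 genes, with 36 to 182 raw counts per library, it was called lower under every one of 14 alternatives, with adjusted p of 0.0321 or less.

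Bcl2l11, whose product BIM binds all the inhibitors and can act on BAX and BAK1 directly, lies at chr2:128126038-128162547 on the plus strand. Its normalized counts were 542, 923 and 583 in Pa1F/F replicates 1, 2 and 3, and 339.7, 363 and 349 in Pa1-/- replicates 1, 2 and 3. The knockout libraries were tightly grouped and the control libraries were not, with Pa1F/F replicate 2 far above the others. The mean fell from 683 ± 209 to 350.4 ± 11.6 (SD, n = 3 each), and the log2 fold change was -0.96 (SE 0.20; -1.44 to -0.48) with an adjusted p of 0.0114. Without Pa1F/F replicate 2 it was -0.68 with an adjusted p of 0.00366. It passed the fold threshold of 1 where Pa1F/F replicate 1 (-1.10) or replicate 3 (-1.06) was left out, so that the count of family genes past both thresholds was then 2.

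Bbc3, which encodes PUMA, a target of the tumour suppressor p53, lies at chr7:16308393-16318205 on the plus strand. Pa1F/F replicates 1, 2 and 3 held 372, 333 and 347 normalized counts, and Pa1-/- replicates 1, 2 and 3 held 206, 224 and 150.3. Control values were close to each other and all well above the knockout values, of which replicate 3 was the lowest. Its mean went from 351 ± 19.9 to 193 ± 38.5 (SD, n = 3 each), and the log2 fold change was -0.86 (SE 0.16; -1.23 to -0.49) at an adjusted p of 0.00658. The call held with each library left out in turn. With the 2 closest libraries of each genotype summed, which leaves 2 values against 2, the adjusted p of Bbc3 was 0.0681 and that of Bcl2l11 was 0.0744.

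**Figure D2:**
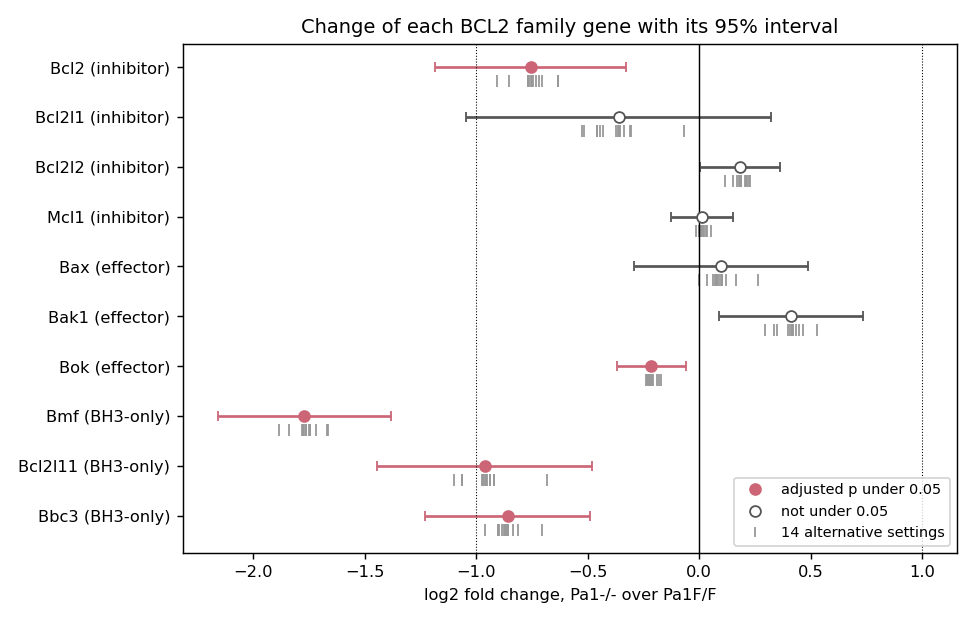
Log2 fold change of each BCL2 family gene, Pa1-/- over Pa1F/F (points, with 95% intervals as bars, n = 3 libraries each), filled where the adjusted p was under 0.05, with grey ticks for 14 alternative settings and dotted lines at an absolute log2 fold change of 1. The 3 BH3-only genes at the bottom lie between -1.77 and -0.86 with every tick left of 0, while the inhibitor Mcl1 lies at 0.011.

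Among the inhibitors, Bcl2 was lower in Pa1-/- cells, while Mcl1, Bcl2l1 and Bcl2l2 were not called. Bcl2, the founding member of the family, lies at chr1:106538178-106714274 on the minus strand. It held 708, 476 and 653 normalized counts in Pa1F/F replicates 1, 2 and 3 and 413, 376 and 299.6 in Pa1-/- replicates 1, 2 and 3. No knockout library reached the lowest control, Pa1F/F replicate 2, but the gap was small. The mean dropped by 40.7%, from 612 ± 121 to 363 ± 57.8 (SD, n = 3 each), with a log2 fold change of -0.75 (SE 0.18; -1.18 to -0.33) and an adjusted p of 0.018. The adjusted p was 0.0688 without Pa1F/F replicate 1, 0.0644 without Pa1F/F replicate 3 and 0.0527 without Pa1-/- replicate 2, with log2 fold changes of -0.64, -0.71 and -0.77. An antisense transcript and an unclassified transcript that overlap Bcl2 held at most 2 counts in any library.

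Bcl2l1, the source of BCL-xL, lies at chr2:152780668-152831728 on the minus strand. Its normalized counts were 2332, 1897 and 2359 in Pa1F/F replicates 1, 2 and 3 and 2065, 2117 and 949 in Pa1-/- replicates 1, 2 and 3. Pa1-/- replicates 1 and 2 lay inside the range of the controls, and replicate 3 far below every other library. The log2 fold change was -0.36 (SE 0.29; -1.04 to 0.32) with an adjusted p of 0.367, and with 1 library left out it ranged from -0.53 (without Pa1-/- replicate 2) to -0.068 (without Pa1-/- replicate 3, adjusted p 0.597).

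Bcl2l2, the source of BCL-W, lies at chr14:54883377-54888234 on the plus strand. It had 2130.4, 1864 and 2171 normalized counts in Pa1F/F replicates 1, 2 and 3 and 2438, 2364 and 2191 in Pa1-/- replicates 1, 2 and 3. Every knockout library was above every control, with Pa1-/- replicate 3 only just above Pa1F/F replicate 3. The log2 fold change was 0.18 (SE 0.08; 0.00168 to 0.36) with an adjusted p of 0.106, and 0.23 with an adjusted p of 0.0375 without Pa1-/- replicate 3.

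Mcl1, which encodes a short-lived inhibitor with fast turnover, lies at chr3:95658788-95663176 on the plus strand. Pa1F/F replicates 1, 2 and 3 held 3795, 3877 and 3623 normalized counts, and Pa1-/- replicates 1, 2 and 3 held 3861, 3931 and 3592. The groups lay on top of each other. Its log2 fold change of 0.011 (SE 0.058) had a 95% interval from -0.13 to 0.15, the narrowest of the 10 genes, with an adjusted p of 0.898.

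Of the 3 effectors, Bok was slightly lower in Pa1-/- cells, and Bak1 and Bax were not called. Bok, an effector that can form pores without the control of the BCL2 inhibitors and is held down by protein turnover, lies at chr1:93685660-93695764 on the plus strand. It held 7847, 7308 and 7448 normalized counts in Pa1F/F replicates 1, 2 and 3 and 6545, 6798 and 6121 in Pa1-/- replicates 1, 2 and 3. All knockout values were below all control values by a small margin. The mean dropped by 13.9%, from 7534 ± 279.8 to 6488 ± 342 (SD, n = 3 each), and the log2 fold change was -0.22 (SE 0.06; -0.37 to -0.06) with an adjusted p of 0.0404. This call was sensitive to the libraries used: the adjusted p was 0.149, 0.0539 and 0.102 without Pa1F/F replicate 1, 2 or 3, 0.107 and 0.0692 without Pa1-/- replicate 1 or 2, and 0.0244 without Pa1-/- replicate 3, with log2 fold changes between -0.24 and -0.17. It was 0.0903 with no filter beyond 1 count.

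Bak1, which with Bax opens the outer mitochondrial membrane, lies at chr17:27019810-27029009 on the minus strand. Its normalized counts were 464, 536 and 385 in Pa1F/F replicates 1, 2 and 3 and 677, 597 and 567 in Pa1-/- replicates 1, 2 and 3. The lowest knockout library was above the highest control. The mean of 614 ± 57.0 against 462 ± 75.8 (SD, n = 3 each) gave a log2 fold change of 0.41 (SE 0.14; 0.09 to 0.73) with an adjusted p of 0.054, just outside the threshold. The adjusted p was 0.0461 with library size only, 0.0327 with no filter, 0.0339 with DESeq2's Wald test, 0.0466 with limma-voom, 0.0253 without Pa1F/F replicate 2 and 0.0342 without Pa1-/- replicate 3. The antisense gene Ggnbp1, which overlaps Bak1, held 26 to 52 counts per library, and the strand setting of the counting is not stated.

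Bax lies at chr7:45461697-45466898 on the minus strand. Pa1F/F replicates 1, 2 and 3 held 351, 405 and 358 normalized counts, and Pa1-/- replicates 1, 2 and 3 held 450.0, 439 and 302. In Pa1-/- replicates 1 and 2 it was above all controls, and in replicate 3 below all controls. The log2 fold change was 0.10 (SE 0.16; -0.29 to 0.49) with an adjusted p of 0.679, and with 1 library left out it ranged from 0.000574 (without Pa1-/- replicate 1) to 0.26 (without Pa1-/- replicate 3, adjusted p 0.0557).

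An exact two-sided permutation test of the normalized counts of 3 against 3 libraries cannot go below p = 0.1, which was its value for the 7 genes without overlap. Without Pa1-/- replicate 3, the library in which Myh11, Des and Cnn1 were highest, 5 family genes were lower and 2 higher (Bak1 and Bcl2l2), in a fit that called 43.1% of all genes tested in either direction, against 35.3% with all libraries. Without Pa1F/F replicate 2, 4 were lower and 1 higher (Bak1), and 29.1% of all genes were called.

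To compare levels between genes, normalized counts were divided by the joined length of all annotated exons of each gene in kb. Which transcripts these cells make was not measured, so that levels between genes are approximate. On this scale Bok had the highest level in Pa1F/F cells, with 3076 ± 114 normalized counts per kb (SD, n = 3), followed by Mcl1 with 1078 ± 37.2. Bcl2l1 (428 ± 50.5) and Bcl2l2 (380.5 ± 30.9) came next with overlapping ranges, and so did Bax (199.9 ± 15.8) and Bak1 (192 ± 31.5). Bbc3 (73.3 ± 4.16), Bcl2l11 (67.5 ± 20.7) and Bcl2 (66.5 ± 13.1) could not be ordered beyond their spread, since the ranges of neighbours overlapped. Bmf was lowest with 30.5 ± 2.74 per kb over 5262 bases of exons, and the level of Bok, over 2449 bases, was 101-fold that of Bmf. Bcl2, the gene that names the family, thus had the lowest level of the 4 inhibitors, and the BH3-only genes were at the low end together with it.

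In Pa1-/- cells Bok (2649 ± 139.6 per kb) and Mcl1 (1087 ± 51.2) again had the highest levels and Bmf (8.90 ± 1.30) the lowest. Bcl2l2 (432 ± 23.5) stood before Bcl2l1 (333 ± 129), Bak1 (255 ± 23.7) before Bax (214 ± 44.6), and Bcl2 (39.4 ± 6.28) before Bcl2l11 (34.6 ± 1.15). Each of these changes of order was within a pair that overlapped in the controls.

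As shares of the summed level per kb of the 10 genes, the BH3-only genes held 2.82%, 3.43% and 2.95% in Pa1F/F replicates 1, 2 and 3 and 1.61%, 1.68% and 1.65% in Pa1-/- replicates 1, 2 and 3. The knockout libraries were all lower, Pa1-/- replicate 3 included. With Bok left out of the sum, the shares were 6.36%, 7.51% and 6.55% against 3.26%, 3.49% and 3.58%. The 4 inhibitors held 34.9%, 34.2% and 35.6% in Pa1F/F and 37.9%, 37.6% and 35.7% in Pa1-/- libraries, and the 3 effectors 62.2%, 62.4% and 61.4% against 60.5%, 60.7% and 62.6%, of which Bok alone made up 50.6 to 55.6% of the whole in each library. The level of Bax per kb over that of Bcl2 was 2.46, 4.22 and 2.72 in Pa1F/F and 5.41, 5.80 and 5.00 in Pa1-/- replicates 1, 2 and 3. The ratio of Bak1 to Bcl2 per kb was 2.51, 4.31 and 2.25 against 6.28, 6.07 and 7.25. For both ratios every knockout library was above every control. Bcl2, the one inhibitor called lower, held 0.703 to 1.33% of the sum, and its fall enters both ratios. Mcl1, Bcl2l1 and Bcl2l2 held more, and ratios to them were not computed. These shares and ratios are descriptions of transcript levels, and no test was run on them.

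**Figure D3:**
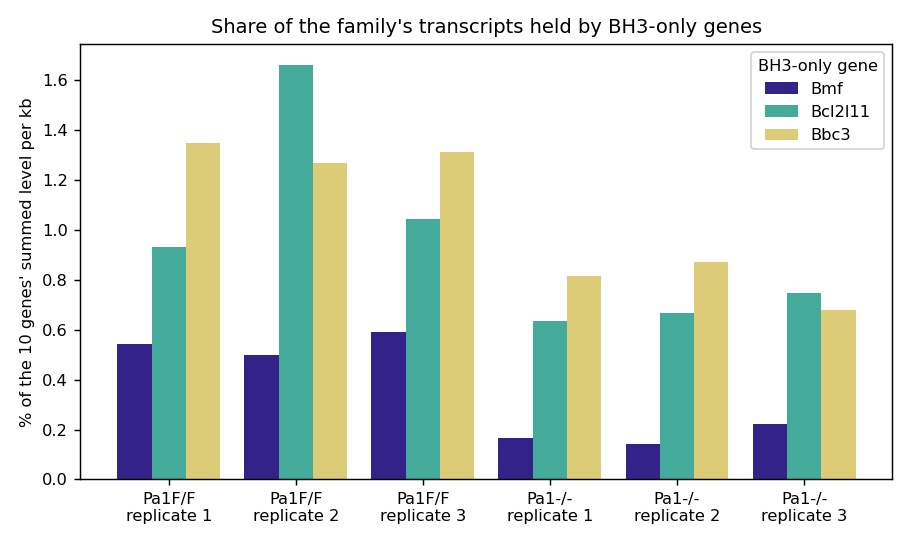
Share of the summed level per kb of the 10 BCL2 family genes (in %, y axis from 0) held by Bmf, Bcl2l11 and Bbc3 (bars) in each of the 6 libraries (x axis). Bmf went from 0.499 to 0.591% in Pa1F/F libraries to 0.144 to 0.222% in Pa1-/- libraries, and the tallest bar is that of Bcl2l11 in Pa1F/F replicate 2, at 1.66%.

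Other genes of the pathway were taken from 5 lists of 81 genes in all, of which 70 were tested. Of these, 8 were higher and 14 lower, with a median log2 fold change of -0.00684, beside 18.2% higher and 17.1% lower of all genes tested. Among the other BCL2 family genes (10 tested), 1 was higher (0 with at least 10 counts in every library) and 2 lower. Bik, a BH3-only gene whose product sits at the endoplasmic reticulum, had 306, 147 and 364 normalized counts in Pa1F/F and 40.0, 41.7 and 13 in Pa1-/- replicates 1, 2 and 3, a log2 fold change of -3.11 (SE 0.49) with an adjusted p of 0.00386 (0.0617 with the closest pairs summed). Its knockout values were all far below its lowest control. Bnip3, a gene that responds to low oxygen and whose product marks mitochondria for removal, had 355, 295 and 375 against 160.1, 146 and 143 normalized counts, a log2 fold change of -1.19 (SE 0.12) with an adjusted p of 0.000812.

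Bcl2a1d, an inhibitor gene of blood cells, had 7, 15 and 0 counts in Pa1F/F and 80, 56 and 60 counts in Pa1-/- replicates 1, 2 and 3 (adjusted p 0.0107; 0.0526 without Pa1F/F replicate 1 and 0.064 with the closest pairs summed). It passed the filter on low counts through the Pa1-/- libraries alone, so that its call is no support for a rise in this list, and it was not tested where each library had to hold 10 counts or more. It also has near-identical copies between which counting can split reads, so its level is uncertain. The list's most counted genes, Bnip3l (0.042) and Bcl2l13 (0.069), had log2 fold changes near 0 and were not called. The other 4 tested BH3-only genes of the list, Bid, Bad, Hrk and Pmaip1, were not called with all 6 libraries, and they were named after their values were seen. Bid had a log2 fold change of -0.34 (adjusted p 0.253) and Bad of 0.13 (adjusted p 0.393), each with overlapping groups. Hrk had 94.2, 113 and 78.7 against 1.95, 11.3 and 75.1 normalized counts, with Pa1-/- replicate 3 near the controls and replicate 1 under 3 counts, at an adjusted p of 0.182. It was lower with limma-voom (0.0448) and without Pa1-/- replicate 3 (0.00101). Pmaip1, the source of NOXA, had 222, 168 and 279 against 103, 148 and 42.1 normalized counts, at an adjusted p of 0.0656. It was lower by DESeq2's Wald test (0.0141), with limma-voom (0.0425), with no filter (0.0306) and without Pa1-/- replicate 2 (0.04) or 3 (0.0331).

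Among 14 partners and turnover factors of the family, 2 were higher and 4 lower. Tpt1, the most counted, which encodes a protein that binds MCL1 and BCL-xL, had a log2 fold change of -0.48 (adjusted p 0.00433; 0.0827 with the closest pairs summed), and Huwe1, a ubiquitin ligase for MCL1, had 0.019, a sign that turned under several alternatives, and was called higher without Pa1-/- replicate 3 (0.19, adjusted p 0.0219). The other called genes, named after their values were seen, were the MCL1 deubiquitinase gene Usp9x (-0.74, adjusted p 0.000891), the MCL1 ligase subunit gene Fbxw7 (-0.29, 0.0153) and Bag6 (-0.29, 0.0298), which were lower, and the mitochondrial channel gene Vdac1 (0.26, 0.00961) and Becn1 (0.24, 0.017), which were higher. Usp9x was called under all 14 alternatives. The others lost their calls with the closest pairs summed (adjusted p 0.114 to 0.148). Becn1 also lost its call without Pa1F/F replicate 1 (0.0588) or 3 (0.0659) or Pa1-/- replicate 1 (0.0685), Fbxw7 with no filter (0.0577) and without Pa1F/F replicate 3 (0.0606) or Pa1-/- replicate 1 (0.0636), and Bag6 in each fit that left out a library other than Pa1-/- replicate 3 (0.0586 to 0.0704).

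Of 18 genes of the apoptosome and the caspases, 2 were higher and 2 lower. Casp6, an executioner caspase gene, had 1012, 891 and 1041 normalized counts in Pa1F/F and 372, 379 and 358 in Pa1-/- replicates 1, 2 and 3, a log2 fold change of -1.41 (SE 0.08) with an adjusted p of 0.000124. The 2 groups were far apart. Cycs, which encodes cytochrome c, had a log2 fold change of -0.69 (adjusted p 0.0015; 0.05 with the closest pairs summed). Birc5, the source of survivin, which is also a gene of dividing cells, was higher by 1.37 (adjusted p 0.011; 0.0791 with the closest pairs summed), with its highest value in Pa1-/- replicate 3, and Dffa, which encodes the inhibitor of the apoptotic nuclease and was named after its values were seen, by 0.56 (adjusted p 0.00974; 0.0773 with the closest pairs summed). Birc6, the most counted of the list, was at 0.048 and not called.

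Of 12 tested genes of the death receptor route, 2 were lower and 0 higher, with 0 higher also at an unadjusted p under 0.05, by DESeq2's Wald test and by limma-voom, and 1 higher without Pa1-/- replicate 3. Tnfrsf21, the gene of death receptor 6, had 557, 356 and 554 normalized counts in Pa1F/F and 169.8, 151 and 106 in Pa1-/- replicates 1, 2 and 3, a log2 fold change of -1.78 (SE 0.24) with an adjusted p of 0.00213. Mlkl, which executes necroptosis, had 359, 832 and 401 against 269, 214 and 227 normalized counts, at -1.16 (SE 0.33) with an adjusted p of 0.0317. The adjusted p of Mlkl was 0.0675 and 0.0977 without Pa1-/- replicate 1 or 2, 0.059 with limma-voom, which left 1 gene of the list lower, and 0.104 with the closest pairs summed. With 1 library left out its log2 fold change ranged from -1.37 to -0.68, so that it did not always pass the fold threshold. Its highest value, like that of Bcl2l11, was in Pa1F/F replicate 2. The most counted of the list, Tnfrsf12a (-0.15) and Tnfrsf1a (-0.057), were not called, and Tnfrsf12a had an adjusted p of 0.049 without Pa1F/F replicate 2.

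Of 16 tested genes of transcription factors known to act on family genes, 3 were higher and 4 lower. Foxo3, a factor known to switch on Bcl2l11 and Bbc3, had 4246, 4306 and 4386 normalized counts in Pa1F/F and 2700.0, 2683 and 2100.1 in Pa1-/- replicates 1, 2 and 3, a log2 fold change of -0.79 (SE 0.10) with an adjusted p of 0.00181. Stat3, the other most counted gene of the list, was at -0.45 (adjusted p 0.00719; 0.0911 with the closest pairs summed). The further called genes were below the fold threshold and were named after their values were seen: Hif1a (-0.97), which acts on Bnip3, and Foxo1 (-0.51) were lower, and E2f1 (0.90), Creb1 (0.40) and Stat5b (0.28) were higher. With the closest pairs summed, Foxo1, E2f1, Creb1 and Stat5b lost their calls (adjusted p 0.061 to 0.139). E2f1 also lost it without Pa1F/F replicate 1 (0.0575) or 3 (0.0582), and Stat5b without Pa1F/F replicate 1 (0.0722) or 2 (0.0527) or Pa1-/- replicate 1 (0.0733) or 2 (0.0625). Trp53 (0.29, adjusted p 0.0812), the gene of p53, and Jun (0.30, adjusted p 0.337) were not called. Trp53 was higher without Pa1F/F replicate 2 (0.41, 0.00868) or Pa1-/- replicate 3 (0.33, 0.0497).

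**Figure D4:**
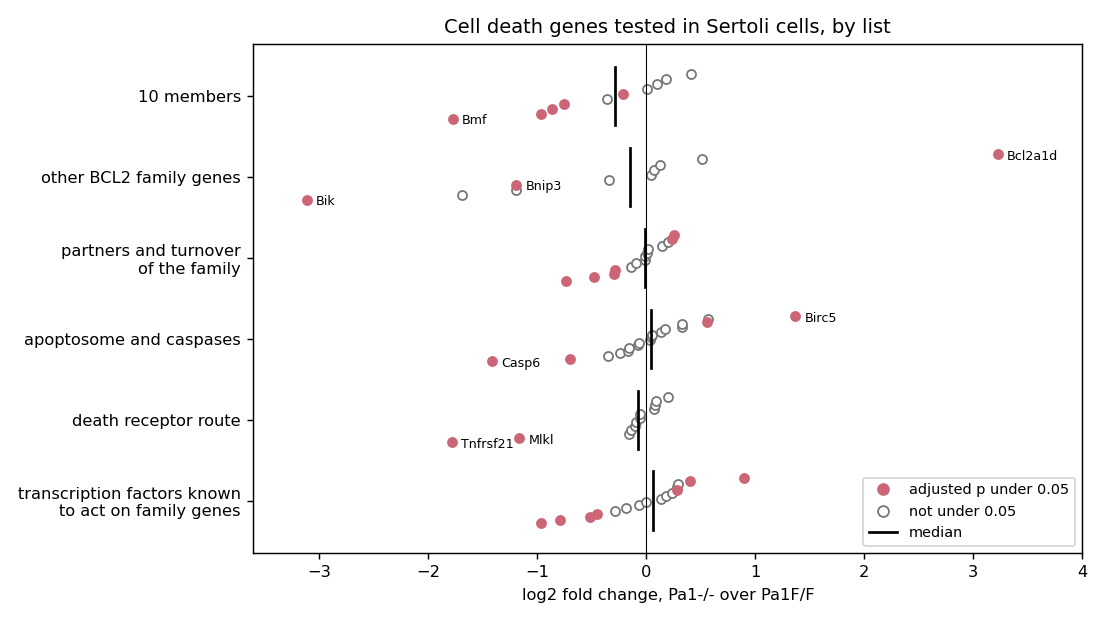
Log2 fold changes, Pa1-/- over Pa1F/F, of the 10 BCL2 family members and of 5 lists of cell death genes (1 row per list, 1 point per tested gene, spread vertically by rank), filled where the adjusted p was under 0.05, with a black line at the median of each list. The median lies at -0.29 for the 10 members, and between -0.15 and 0.065 for the 5 lists, with Bik at -3.11 and Bcl2a1d at 3.23 as the outermost points.

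The genes whose pattern over the 6 libraries was most like that of Bmf, by Euclidean distance of centred log2 CPM over 11718 genes, were Sipa1l2 (distance 0.102, log2 fold change -1.75), Deptor (0.110, -1.69) and Paqr7 (0.156, -1.77). Those nearest to Bok, the most counted of the 10 genes, were Akirin1 (0.0472, -0.20), Rfx1 (0.0473, -0.24) and Sde2 (0.0513, -0.20). The points share the same 6 libraries, and likeness here is a description only.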

How the data were processed

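RNA-seq of total RNA from 6 libraries of primary Sertoli cells (3 Pa1F/F, 3 Pa1-/-) was analysed. The authors aligned reads to GRCm38 with HISAT2 2.1.0 and counted reads per gene with HTSeq 0.6.0, per the study's methods and processing notes, and deposited the raw counts in one table. Its further columns hold the authors' own comparison and were not used.

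Counts were tested with edgeR 4.0.16 in R 4.3.3: filterByExpr (by group, with 10 counts as its minimum and 15 in total), TMM, the quasi-likelihood F-test and Benjamini-Hochberg adjustment over 14919 genes. The study names DEGseq, which was not run. Calls were made at an adjusted p under 0.05 and, as the study did, a log2 fold change of 1 or more in either direction. A standard error is the absolute log2 fold change divided by the square root of F, and 95% intervals use the t distribution. Intervals and the floor of 3 counts cover counting and library spread only, since reads carry no molecular identifiers. TMM centres most genes on no change. The steps were tested on simulated data. Alternatives used DESeq2 1.42.0 and limma 3.58.1 (voom). Log2 CPM used a prior count of 3. Exon lengths came from GENCODE vM39 (GRCm39) by Ensembl ID, promoters from RefSeq (GRCm38.p6), gene positions from the table.

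Named were all 10 members, in other lists each gene past both thresholds and the 2 most counted, and the 3 genes nearest to Bmf and Bok (mean normalized count 50 or more). Members and lists were chosen with earlier results of these data known.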

Additional observations from a re-analysis of the deposited data

How the results depend on the processing

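The 14 alternatives left the direction of 9 of the 10 family genes as it was, the exception being Mcl1. Family genes higher in Pa1-/- cells numbered 1 instead of 0 (Bak1) with library size only, with no filter beyond 1 count, with DESeq2's Wald test and with limma-voom, and 0 to 2 with each library left out. Family genes lower numbered 1 instead of 5 (Bmf) with the closest pair of each genotype summed, which has fewer samples and called 8.66% of genes instead of 35.3%, and 3 to 5 with each library left out. Those past both thresholds numbered 1 to 2 with each library left out. In the 5 other lists, 8 higher became 5 with the replicate block and 0 with the closest pairs summed, and 4 to 16 with each library left out, and 14 lower became 6 with the closest pairs summed. The sign of Mcl1 turned with at least 10 counts in every library (-0.00142), with the closest pairs summed (-0.00189) and without Pa1F/F replicate 3 (-0.017, in a range up to 0.051 over libraries left out). Huwe1 turned with limma-voom (-0.00423), the replicate block (-0.00379), the closest pairs summed (-0.041) and libraries left out (-0.077 to 0.19). Sycp3 turned with limma-voom (-0.010), the block (-0.00642) and libraries left out (-0.24 to 0.28), and Myh11 with limma-voom (-0.53), the block (-0.57) and without Pa1-/- replicate 3 (-1.58, adjusted p 0.000484, in a range up to 0.69 over libraries left out). Of the marker genes, Dmrt1, Adgre1, Hsd3b1, Star and Pecam1 lost their calls with the closest pairs summed (adjusted p 0.0634 to 0.0931). The cause was not tested.

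The replicate numbers did not pair the libraries: deviations of same-numbered libraries correlated at 0.108, -0.164 and -0.179, and no library correlated best with its own number. With the replicate block, 4 family genes were lower, since Bok had an adjusted p of 0.11, 0 were higher, Fbxw7 (0.0526), Vdac1 (0.0534), Becn1 (0.0639), Bag6 (0.0543), Mlkl (0.068), Stat5b (0.0702), Ddx4 (0.104) and Vwf (0.0572) of the other lists lost their calls, and 25.5% of all genes were called.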
